A study of Mus musculus with 2 samples.

Results

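Heat shock proteins, J-proteins and the CCT chaperonin are the general protein-folding machinery of the cell. Their genes were taken by name: all genes whose single symbol on the array platform starts with Hspa, Hspb, Hspd, Hspe, Hsph, Hsp90, Dnaja, Dnajb or Dnajc, together with Tcp1, Cct2, Cct3, Cct4, Cct5, Cct6a, Cct7 and Cct8, and without the Hspbp and Hspbap genes and Cct6b. This gave 78 of 18193 genes on the array, read by 194 probe sets. Antigen-presenting cells (APCs) came from spleens of female C57BL/6 mice aged 10 weeks. Both groups were kept overnight with CD4+ T cells that carry the transgenic P25 T cell receptor, after which the APCs were enriched. The P25 group received P25, the mycobacterial peptide that this receptor recognises, and the non-stimulated group received medium. Total RNA of 3 independent experiments was mixed for each condition and hybridised to 1 Affymetrix array per condition, so there is no spread between replicates and no p-value. The APCs are a mixture of cell types, and how they were enriched is not given in the sources used here.

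Each value is a MAS5 signal, the brightness of a probe set in arbitrary units after subtraction of mismatch signal. The ratio of a gene is that of the P25 array over the non-stimulated array on its brightest probe set. Signals below 10.3, the 40th percentile over both arrays, were set to that floor, and a gene was measured when at least 1 array lay above it. A gene was counted as higher or lower from 2-fold on. As a gauge of technical disagreement, the log2 ratios of the brightest pair of probe sets of a gene differed with an SD of 0.58 over 5293 genes, and of 0.49 over the 43 chaperone genes that had such a pair.

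Chaperones bind unfolded proteins and keep them from aggregating. HSP70 proteins do this in cycles of ATP hydrolysis, which J-proteins (the DNAJA, DNAJB and DNAJC families) start and direct to substrates, and which HSP110 proteins reset by exchanging the nucleotide. HSP90 completes the folding of kinases, receptors and other clients, HSP60 with its lid HSP10 encloses proteins in the mitochondrial matrix, and CCT encloses actin, tubulin and other cytosolic proteins. Small HSPs hold unfolded proteins without using ATP. In APCs, proteins of this machinery fold antigen receptors and Toll-like receptors, and heat shock proteins are also studied as carriers of antigenic peptides.

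Of the 78 chaperone genes 68 were measured, and both arrays lay above the floor for 65. With P25, 15 were at least 2-fold higher (22.1%), against 9.43% of all 12897 measured genes, and 2 were at least 2-fold lower (2.94%), against 7.22% of all. For 14 of the 15 both arrays lay above the floor, and for Hspa1a only the P25 array. The median over the 68 was 1.28-fold higher, and over all measured genes 1.01-fold. The classes differed in their values. Chaperones other than J-proteins counted 13 of 29 genes past 2-fold upward and none downward, and their median was 1.82-fold higher. Of 39 measured J-proteins 2 passed upward and 2 downward, and their median was 1.06-fold. CCT and the mitochondrial chaperonin had the highest class medians, at log2 ratios of 1.09 and 1.39, followed by HSP110 (0.87), HSP90 (0.81), HSP70 (0.77) and DNAJA (0.71). Some of these medians, over 2 to 9 genes, depend on the probe sets used. Without probe sets of the suffixes _x, _s or _a, which mark probes shared between genes or between transcripts of a gene, HSP110 had 0.19 (2 genes), DNAJA 0.14 (2 genes) and HSP90 1.52 (1 gene). By the median over probe sets HSP110 had 0.47 and DNAJA 0.45, and on second probe sets HSP70 had 1.26. The medians of small HSPs (0.18, but -0.05 without those suffixes and -0.50 for the 1 gene left with the floor at the 60th percentile), DNAJC (0.08) and DNAJB (-0.20, but 0.10 with the floor at the 75th percentile) were near 0. The plot of log2 ratios by class shows each measured member.

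**Figure D1:**
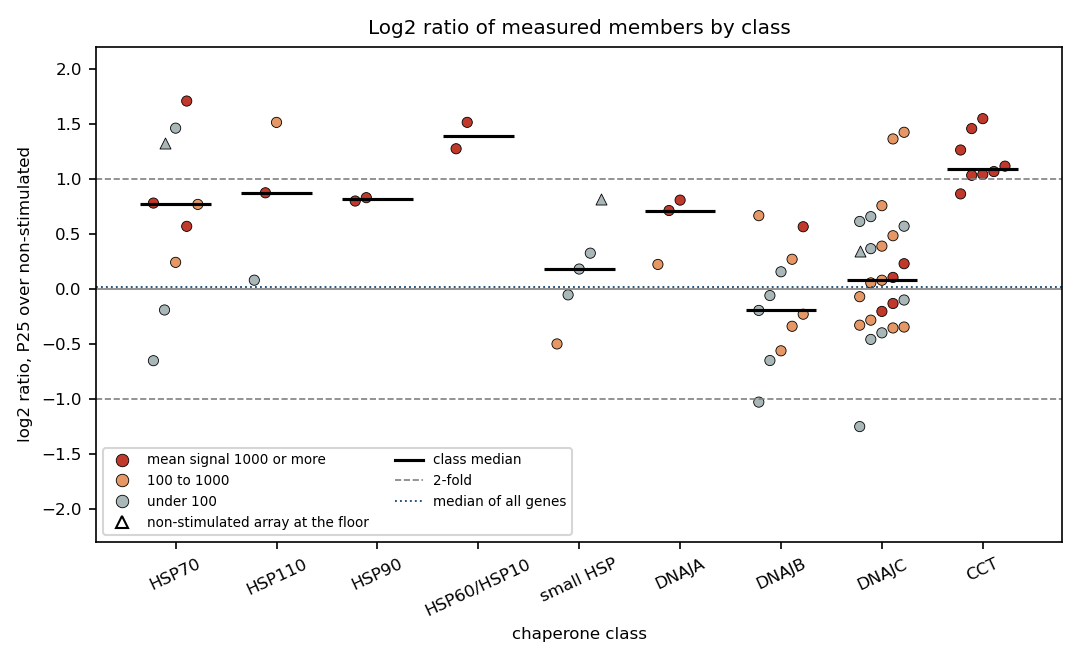
Log2 ratio of the P25 array over the non-stimulated array (vertical axis) for the 68 measured chaperone genes, 1 point a gene, by class (horizontal axis) and coloured by mean signal; triangles are bounds with the non-stimulated array at the floor, bars are class medians, dashed lines mark 2-fold and the dotted line the median of all genes. All 8 CCT genes and both mitochondrial chaperonin genes lie above 0.8, while the DNAJB and DNAJC genes spread around 0.

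Brightness went along with the ratio among these genes. Over the 65 members above the floor on both arrays, Pearson's r between mean log2 signal and log2 ratio was 0.58 and Spearman's rho 0.59, against 0.07 for both over the 10917 genes of the array in the same state. Within the 38 J-proteins among them r and rho were both 0.37, and within the 27 other members r was 0.65 and rho 0.40. The points are genes on the same 2 arrays, which are no replicates, and signals of different probe sets are not on one scale. Of the 23 members with a mean signal of 1000 or more, 10 were at least 2-fold higher (43.5%), against 11.4% of the 989 genes this bright, and none was at least 2-fold lower, against 4.75% of those genes. In that range the 16 members other than J-proteins had a median log2 ratio of 1.05, the 7 J-proteins one of 0.23 and all genes one of 0.12.

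CCT is a ring-shaped chaperonin built from 8 different subunits, and the genes of all 8 were bright on both arrays. Cct3 had a signal of 3991 with P25 and 1364 without stimulation. Cct6a had 4475 against 1629, and Cct7 3214 against 1339. These 3 subunits had the largest log2 ratios of the ring, at 1.55, 1.46 and 1.26. Cct5 gave 4844 against 2234 (2.17-fold), and Cct8 gave 2431 against 1160 (log2 ratio 1.07). Tcp1, which encodes the first subunit of the ring, had 3646 against 1772 (2.06-fold). Cct4 followed with 5086 against 2486 (2.05-fold), and Cct2, with 4826 against 2652, stayed under the threshold at 1.82-fold. All 8 subunits were thus higher with P25, over a narrow range, with an SD of 0.23 between their log2 ratios against 0.76 over all measured genes. Other bright probe sets gave like values, with log2 ratios of 1.52, 1.36 and 1.72 for Cct3, 1.55 for Cct6a and 1.45 for Cct7, and 0.70 and 1.16 for Cct2. The calls of Cct4, Cct5, Cct8 and Tcp1 sat close to the threshold, and none of them passed it after lowess centring, which subtracts the trend of the ratio with brightness and brought the CCT median to a log2 ratio of 0.91. The second brightest probe set of Cct4 and the median of its 7 probe sets were also under 2-fold. The brightest probe set of Cct3 carries the suffix for probes that can match other genes (_x). A bright probe set with the suffix for several transcripts of a gene (_a) gave 3607 against 1256, and the brightest without any suffix of this kind was dim (43.4 against 52.8, log2 ratio -0.28).

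**Figure D2:**
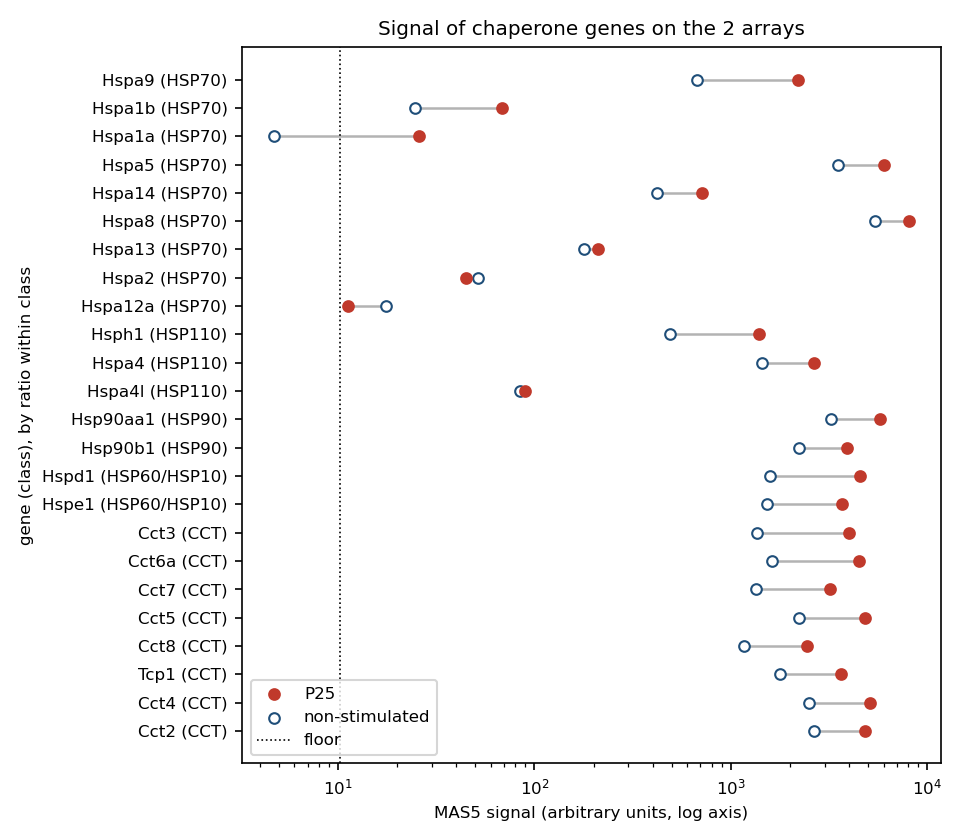
MAS5 signal on a log axis of the measured HSP70, HSP110, HSP90, mitochondrial chaperonin and CCT genes, with the P25 array as filled red points, the non-stimulated array as open blue points and the floor as a dotted line. The CCT and mitochondrial chaperonin genes run from 1160 to 2652 without stimulation and from 2431 to 5086 with P25, and Hspa2 and Hspa12a are the only genes here with the P25 point to the left.

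Of the 9 measured mitochondrial members 5 were past 2-fold higher (55.6%, against 9.43% of all measured genes). The 1 past 2-fold lower made 11.1%, against 7.22% of all. Hspa9 had the largest ratio of all members on its brightest probe set. Hspa9, the HSP70 of the mitochondrial matrix, which pulls imported proteins across the inner membrane and folds them, had a signal of 2195 with P25 and 671 without stimulation, or 3.27-fold higher. Its second bright probe set gave 1539 against 564, and 2 dim ones a log2 ratio of 0.41 each, so that the median over its probe sets was 0.93, under 2-fold. Hspd1, which encodes HSP60, had 4531 against 1586 (2.86-fold). Hspe1, which encodes HSP10, had 3686 against 1523 (2.42-fold), and 1909 against 547 on its other probe set. The J-protein genes of this compartment did not all share this. Dnajc15, an inner-membrane partner of the import motor, had 637 against 237 (2.68-fold), and Dnajc11, found at the outer membrane with the cristae-organising complex, had 284 against 110 (2.57-fold, and 0.97 in log2 on the other measured probe set). Dnaja3, the matrix J-protein that works with Hspa9, was within 2-fold (272 against 233), as were Dnajc30 (287 against 361) and Dnajc4 (115 against 147). Dnajc28 was dim and 2.38-fold lower (19.2 against 45.7), while its other probe set stood at -0.11 in log2. The median of these 9 genes was 2.42-fold higher.

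Hspd1 and Hspe1 lie head to head on chromosome 1 and are transcribed in opposite directions from a shared stretch of DNA. In the RefSeq promoter table (GRCm38.p6) Hspd1 has 2 listed starts. Between one of them and the start of Hspe1 lie 216 bases, and the other lies beyond the start of Hspe1, so that the transcripts overlap there. The heat shock element, bound by heat shock factors, is a run of inverted GAA units, searched here on both strands as GAANNTTC and in an extended form that adds the third inverted unit on either side, so that each extended match contains the short one. The extended form occurs in overlapping matches in the stretch that Hspd1 and Hspe1 share. The same extended element lies upstream of Dnajb6, whose ratio was 1.48-fold, and the short one upstream of the stress-inducible Hspa1b. These stretches are shown with the matches in capitals. On their brightest probe sets the 4 genes with the extended element had ratios from 1.48-fold to 2.86-fold. Of these 4, Hsph1 is not shown, because its match lies after its listed starts and not upstream. Measured genes with the short element ranged more widely, from 1.04-fold lower (Hspb6) to 2.86-fold higher (Hspd1).
Hspe1 (its own strand; Hspd1 reads the complement), chr1:55088029-55088106, plus strand: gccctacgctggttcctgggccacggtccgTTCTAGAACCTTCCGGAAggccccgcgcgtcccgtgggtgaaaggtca
Dnajb6, chr5:29735822-29735894, plus strand: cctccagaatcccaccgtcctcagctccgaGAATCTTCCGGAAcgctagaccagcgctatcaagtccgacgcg
Hspa1b, chr17:34959305-34959372, minus strand: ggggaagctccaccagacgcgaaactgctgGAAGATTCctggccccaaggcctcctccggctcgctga

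Promoter windows, from 250 bases before to 50 bases after a start, were found for 64 of the 78 members, 55 of them measured. The short heat shock element was in a window of 15 of the 64 members (23.4%) and of 9.04% of all 27025 genes in the table. The 13 measured members with it had a median log2 ratio of 0.81, with 5 at least 2-fold higher. The 42 without it had 0.13, with 7 higher, and 9.43% of all measured genes were higher. The 5 were Hsph1, Hspd1, Hspe1, Hspa1a and Hspa1b. They are not 5 separate cases, because Hspd1 and Hspe1 share the same site, and the near-identical Hspa1a and Hspa1b carry the same match. Hspa1a, like Dnajc5g among the 13, was above the floor with P25 alone, so its ratio is a lower bound. With the floor at the 60th percentile Hspa1a was not measured and Hspa1b had a log2 ratio of 0.82. A part of the element in these ratios was not tested. Members with the element also included Dnaja1 and Cct2, and the dim small HSP genes Hspb1, Hspb6 and Hspb8. The extended element was in windows of 4 members (Hspd1, Hspe1, Hsph1 and Dnajb6; 6.25%) and of 0.662% of all genes. The E-box CACGTG, bound among others by MYC, was in windows of 6 members (9.38%) against 8.09% of all genes, and the CCAAT box, searched as CCAAT, in those of 28 (43.8%) against 41.1%. A match describes the letters of the window and does not show that a factor is bound there.

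None of the 13 measured members of the endoplasmic reticulum (ER), where secreted and membrane proteins fold, passed 2-fold on its brightest probe set. Of all measured genes 9.43% were higher and 7.22% lower, so none of 13 genes lies near those shares. Of the 13 ER genes 9 had a log2 ratio above 0 (69.2%, against 51.4% of all measured genes) and 4 below, and the median was 1.11-fold higher. Hspa5, the ER HSP70 known as BiP, had 6000.1 with P25 and 3493 without stimulation (1.72-fold). Hsp90b1, the ER HSP90 known as GRP94, which folds integrins and Toll-like receptors, had 3886 against 2233 (1.74-fold). Dnajb11, a J-protein that brings substrates to BiP, had 644 against 406 (1.59-fold), and Dnajc3, another BiP partner, 427 against 305 (1.40-fold). The other ER members were closer to equal or lower. Dnajc10, a disulfide reductase, had 260.4 against 250.7, and Dnajc1, an ER membrane J-protein, 241 against 228. Dnajb9, a J-protein induced by the unfolded protein response, had 454 against 575 (1.27-fold lower). The second probe set of Hspa5 gave 4066 against 1701, a log2 ratio of 1.26, and that of Hsp90b1 gave 886 against 656, or 0.43. The other probe sets of Dnajc3 ran from -0.06 to 1.00.

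The ER stress element, through which the unfolded protein response acts on chaperone genes, was searched on both strands as CCAAT and CCACG with 9 bases between them, so that each match contains a CCAAT box. It was in windows of 3 of the 64 members (Hspa5, Hsp90b1 and Dnajc3; 4.69%) and of 0.137% of all genes. These 3 ER genes had log2 ratios of 0.78, 0.80 and 0.48. They are shown with the matches in capitals, each on its own strand.
Hspa5, chr2:34771995-34772073, plus strand: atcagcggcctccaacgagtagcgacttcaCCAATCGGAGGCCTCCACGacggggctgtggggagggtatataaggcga
Hsp90b1, chr10:86705503-86705686, minus strand: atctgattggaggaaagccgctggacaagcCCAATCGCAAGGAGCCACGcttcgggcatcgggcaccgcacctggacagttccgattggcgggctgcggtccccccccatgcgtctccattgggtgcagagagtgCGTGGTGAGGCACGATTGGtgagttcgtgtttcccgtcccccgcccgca
Dnajc3, chr14:118937797-118937875, plus strand: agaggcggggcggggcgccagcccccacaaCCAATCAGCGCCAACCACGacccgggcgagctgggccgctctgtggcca

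In the cytosol, the constitutive HSP70 and the inducible HSP90 were very bright and higher with P25 by less than 2-fold on their brightest probe sets. Hspa8, the constitutive HSP70 (HSC70), had 8065 with P25 and 5436 without stimulation (1.48-fold). Hsp90aa1, the inducible cytosolic HSP90, had 5760 against 3241 (1.78-fold). The constitutive Hsp90ab1 was not analysed here, so the HSP90 class is Hsp90aa1 and the ER member Hsp90b1. Hspa8 and Hsp90aa1 both depended on the probe set. On other bright probe sets Hspa8 had 5930 against 1989 (log2 ratio 1.58) and 6440 against 3913 (0.72), and Hsp90aa1 had 3188 against 811 (1.97) and 3879 against 1356 (1.52). By the median over their probe sets both genes were past 2-fold. Over the whole array the second probe set gave the higher ratio in 334 of the 668 genes with a brightest probe set of 1000 or more and a second of 100 or more, and in 9 of the 16 such chaperone genes.

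The stress-inducible HSP70 genes Hspa1a and Hspa1b, whose coding sequences are nearly identical, were dim on both arrays. Hspa1b had 68.3 with P25 and 24.8 without stimulation (2.75-fold higher), and its other probe sets gave log2 ratios of 1.76 and 0.51. Hspa1a was above the floor with P25 alone (25.9 against 4.73), at least 2.52-fold higher. With the floor at the 60th percentile of the signals Hspa1b was under 2-fold and Hspa1a was not measured. Hspa14, which with the J-protein Dnajc2 makes up the ribosome-associated complex that receives nascent chains, had 715 against 420 (1.70-fold), and 310 against 71.4 on its second probe set (log2 ratio 2.12). Dnajc2 itself had 1157 against 685 (1.69-fold), with 0.94 and 0.87 on its other measured probe sets. The remaining HSP70 genes were Hspa13, an ER-associated member (211 against 179), Hspa2, known from germ cells (45.0 against 51.4), and the atypical Hspa12a (11.2 against 17.6), all within 2-fold. Both arrays lay below the floor for Hspa1l and Hspa12b.

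Among the HSP110 genes, whose products exchange the nucleotide of HSP70 and help to dissolve aggregates, Hsph1 had 1395 with P25 and 488 without stimulation (2.86-fold), and 696 against 177 on its other probe set (log2 ratio 1.97). Hspa4 had 2639 against 1440 (1.83-fold) on its brightest probe set, and its others ran from -0.27 to 1.03. Hspa4l had 89.4 against 84.6, but its other 4 probe sets were lower, from -0.58 to -0.07, and the median over its probe sets was -0.50. Small HSPs were dim and none passed 2-fold. Hspb1, which encodes HSP27, had 37.8 against 33.4, Hspb6 had 29.9 against 31.0, and Hspb8, a partner of the autophagy co-chaperone Bag3, had 16.1 against 12.8. Hspb2 was above the floor with P25 alone (18.1 against 8.01), at least 1.76-fold higher. Hspb11, whose product is a subunit of intraflagellar transport despite its symbol, had 179.8 against 254 (1.42-fold lower). Hspb3, Hspb7 and Hspb9 were below the floor on both arrays.

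**Figure D3:**
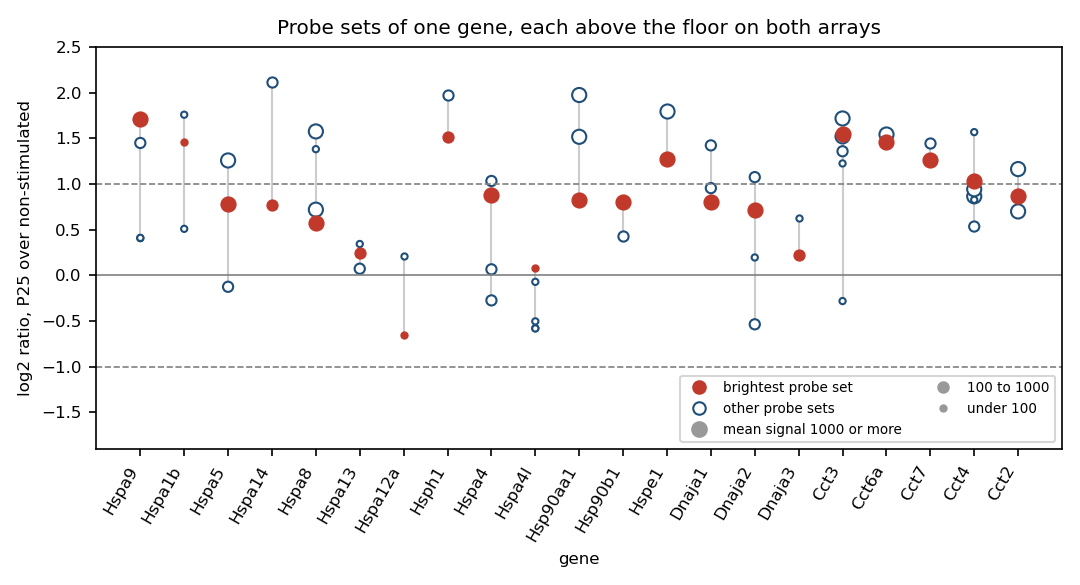
Log2 ratio of the P25 array over the non-stimulated array for every probe set above the floor on both arrays, for genes of the HSP70, HSP110, HSP90, HSP60/HSP10, DNAJA and CCT classes with at least 2 such probe sets; red filled points are the brightest probe set, open points the others, and point size marks mean signal. Hspa8 and Hsp90aa1 have bright probe sets on both sides of the 2-fold line, while the bright probe sets of Cct3 and Cct6a all lie above it.

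J-proteins differ in what they direct HSP70 to, and they went both ways. DNAJA holds general cytosolic HSP40 proteins and the mitochondrial Dnaja3 described above. In this class Dnaja1 had 2755 with P25 and 1574 without stimulation (1.75-fold, with 1.42 and 0.95 in log2 on its other probe sets). Dnaja2 had 3146 against 1919.5 (1.64-fold), but its other probe sets ran from -0.54 to 1.08. Dnaja4 was below the floor on both arrays. In DNAJB the largest ratio was that of Dnajb11, and Dnajb6, a suppressor of aggregation, had 1269 against 858 (1.48-fold). The other probe sets of Dnajb6 gave log2 ratios of 0.66, 0.06 and -0.62. Dnajb1, the heat-inducible HSP40, was near equal (761 against 631, and 453 against 471 on its other probe set). Dnajb12 had 70.5 against 63.3, and it is an ER membrane J-protein like Dnajb14 (28.4 against 44.6). Dnajb4 (105 against 156), Dnajb2 (110 against 128) and Dnajb13 (10.9 against 12.5) were within 2-fold, on the lower side. Dnajb5 had 74.6 against 77.8, and its other 2 probe sets were higher, at 0.50 and 0.43. Dnajb8 was 2.04-fold lower, from a dim probe set (12.9 against 26.4). Dnajb3 and Dnajb7 were below the floor on both arrays.

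DNAJC is the most varied class, with 25 measured genes. Dnajc15 and Dnajc11 were past 2-fold higher (8%, against 9.43% of all genes) and Dnajc28 past 2-fold lower (4%, against 7.22%). After these and Dnajc2, the highest were Dnajc27, which carries a Rab-like domain (88.9 with P25 against 56.3 without stimulation), and Dnajc24, which acts in the synthesis of diphthamide (122 against 79.8, and 1.12 in log2 on the other probe set). The other probe set of Dnajc27 had a log2 ratio of 0.08. The bright members were near equal. Dnajc7, which passes clients between HSP70 and HSP90, had 1707 against 1871. Dnajc8, found with the splicing machinery, had 1603 against 1491, and Dnajc17, also tied to splicing, 1102 against 940. Dnajc9, a histone co-chaperone, had 1314 against 1514 (1.15-fold lower). At the low end were Dnajc16 (46.2 against 63.6) and Dnajc12 (51.0 against 67.3), a co-chaperone of amino acid hydroxylases. Dnajc5, the cysteine string protein of secretory vesicles, had 533 against 678 (1.27-fold lower), with -0.53 to 0.69 on its other probe sets. The other measured genes (Dnajc5b, Dnajc21, Dnajc25, Dnajc5g, Dnajc13, Dnajc18, Dnajc14) had log2 ratios between -0.28 and 0.57, and Dnajc6 and Dnajc22 were below the floor on both arrays. Dnajc5g was above the floor with P25 alone. With the floor at the 60th percentile neither lower call among J-proteins remained: Dnajb8 was no longer measured and Dnajc28 had a log2 ratio of -0.24.

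Partner genes outside these families were taken from lists of their own, whose counts are to be read against 9.43% higher and 7.22% lower among all measured genes. Of 19 measured co-chaperones of HSP70 and HSP90, 4 passed 2-fold upward (21.1%) and none downward, and the median was 1.49-fold higher. Stip1, the adaptor that joins HSP70 to HSP90, had 1042 with P25 and 319 without stimulation (3.27-fold). Ahsa1, the activator of the HSP90 ATPase, had 1487 against 661 (2.25-fold). Fkbp4, a prolyl isomerase of steroid receptor complexes, had 619 against 279 (2.22-fold), and Tomm70a, the import receptor that docks HSP70 and HSP90 at mitochondria, 792 against 365 (2.17-fold). The lowest was Cdc37l1 (430 against 731). Of 10 nucleotide exchange factors 1 was past 2-fold (10.0%), near the 9.43% of all genes. It was Bag2, from a dim probe set (64.7 against 17.5, 3.69-fold higher). Bag4 was lowest (111 against 121), and the list's median was 1.46-fold. All of these medians stand beside 1.01-fold over all measured genes.

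Prefoldin hands nascent actin and tubulin to CCT. Of 12 measured prefoldin subunits and CCT cofactors, Pfdn4 (572 with P25 against 270 without stimulation, 2.12-fold) and Pfdn6 (1204 against 585, 2.06-fold) passed 2-fold upward (16.7%, against 9.43% of all genes) and none downward (7.22% of all genes), and the median was 1.69-fold higher. The lowest was Pfdn5, at 2308 against 3097. Of 14 measured mitochondrial proteases and quality control genes, 3 passed 2-fold upward (21.4%, against 9.43% of all genes) and none downward (7.22% of all genes), and the median was 1.47-fold higher. They were the disaggregase Clpb (165 against 72.3), the prohibitin Phb2 (2195 against 1003) and the protease Lonp1 (419 against 197). Spg7 was lowest (91.5 against 124).

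The list of ER folding and unfolded protein response genes went both ways. Of its 24 genes 4 passed 2-fold upward (16.7%, against 9.43% of all genes) and 2 downward (8.33%, near the 7.22% of all genes), and the median was 1.05-fold. The higher ones were Ero1a, which oxidises disulfide isomerases (382 with P25 against 131 without stimulation), Sdf2l1, a BiP cofactor (379 against 139), Manf (2053 against 838) and the disulfide isomerase Pdia3 (2051 against 995). The lower ones were Eif2ak3, the stress sensor PERK (309 against 818, 2.65-fold), and Ern1, the stress sensor IRE1 (46.7 against 95.0, 2.03-fold). The 3 measured heat shock factor genes, all dim, and the factor-binding Hsbp1 were within 2-fold, from -0.52 for Hsf4 to 0.20 for Hsf2. The J-domain genes with other names, Hscb, Sec63 and Gak, were within 2-fold on the lower side, from -0.32 to -0.03.

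**Figure D4:**
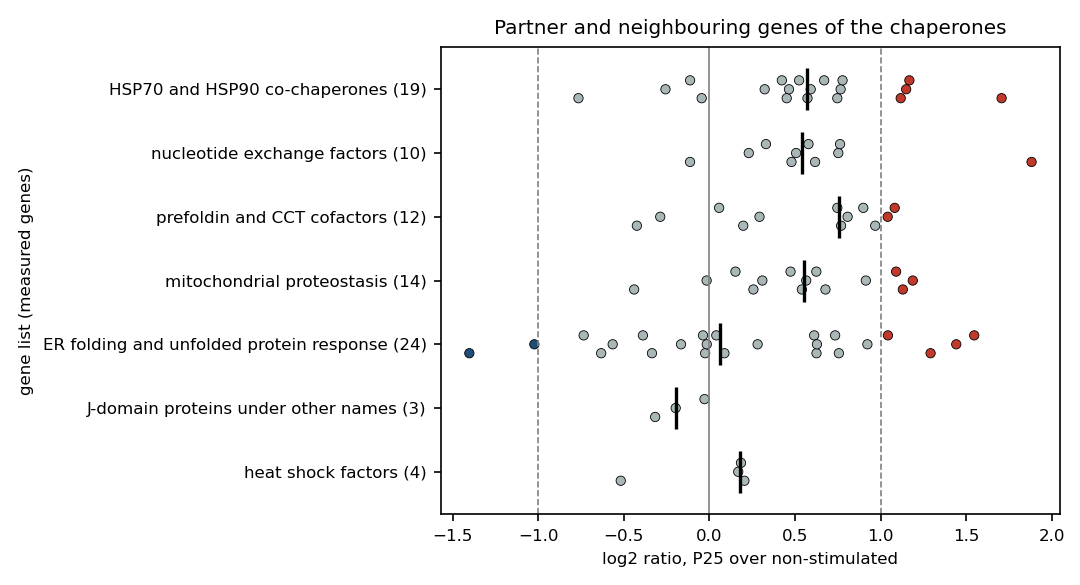
Log2 ratio of the P25 array over the non-stimulated array (horizontal axis) for the measured genes of 7 partner lists (vertical axis, number measured in brackets); red points are at least 2-fold higher, blue points at least 2-fold lower, and bars are list medians. The medians of the co-chaperone, exchange factor, prefoldin and mitochondrial lists lie between 0.54 and 0.76, and only the ER list has points past 2-fold on both sides.

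The cell types on the arrays were not the same in their markers. Counts past 2-fold here are to be read against 9.43% higher and 7.22% lower among all measured genes. Among macrophage and monocyte markers 7 were measured, and 6 of them passed 2-fold downward with P25 and none upward. Signals summed over the 9 of these markers on the array were 1355 with P25 and 3229 without stimulation, and C1qa and C1qc were below the floor. Of 9 neutrophil markers 7 were at least 2-fold lower (sums 6973 and 12913), and of 9 B cell markers 2 (sums 21142 and 29339). Of 7 measured dendritic cell markers 5 had a log2 ratio below 0, with Sirpa past 2-fold lower, and the median was -0.70. Their sum was 484 with P25 and 413 without stimulation because of the other 2, Ly75 (232 against 53.6) and Zbtb46 (80.0 against 14.0), and Xcr1 was below the floor. Of 8 T cell markers on the array, Cd3e, Cd3d and Cd4 were below the floor on both arrays, and of the other 5 none was at least 2-fold higher and 2 were lower (sums 138 and 214). Red cell markers were all below the floor. In such mixed RNA, fewer cells of a type and less RNA per cell cannot be told apart, and the part of these shifts in the chaperone ratios was not tested.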

How the data were processed

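Biotin-labelled cRNA from 1 µg of total RNA was hybridised to 1 array per condition, per the labels' protocols. The deposited intensity values are MAS5 signals, and per the submitters' processing notes GCOS was used. The sources used here do not give a scaling target or detection calls. Each array held 45101 probe sets, 64 of them controls, with medians of 18.0 (P25) and 18.4 (non-stimulated) over the others. Gene names came from the platform annotation and were updated through a RefSeq table (GRCm38.p6), and the 34945 probe sets with 1 symbol were used (204 without a RefSeq match), not the 932 with several or the 9160 with none. No chaperone gene changed name. List genes lacking such a probe set, among them Hsp90ab1, Hsf1 and Dnajc19, were not analysed here. Each gene took the probe set with the highest mean log2 signal. With 1 array per condition no test was run, and the number of arrays limits the precision. Hybridisation batch and treatment cannot be told apart. Members, lists and alternatives were chosen with earlier results of these data known. The text names every member, and of each partner list all genes past 2-fold with the lowest. Code was tested on simulated data. Python 3.11.15, pandas 2.3.3 and statsmodels 0.14.6 (lowess) were used.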

Additional observations from a re-analysis of the deposited data

How the results depend on the processing

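Of the 15 genes at least 2-fold higher, lowess centring kept 11. The count was 13 with floors at the 60th and 75th percentiles (of 58 and 46 members), all among the 15. It was 17 of 68 after median scaling, 18 of 68 after spike-in scaling and 19 of 78 without a floor, each of which kept all 15. The share of all genes that were higher, 9.43% in the main setting, moved too. It was 9.90% after lowess centring and 9.89% and 9.45% with those floors. After median scaling it was 12.4%, after spike-in scaling 13.5% and without a floor 17.8%. The count of members was 15 of 68 by the median over probe sets (13 kept, 2 gained), against 8.07% of all genes. On second probe sets it was 12 of 43 (7 of 9 kept, 5 gained), against 9.79%. Without the suffixes _x, _s and _a it was 13 of 59 (10 of 13 kept, 3 gained), against 8.92%. The 2 lower genes became 0 with both higher floors and on second probe sets, and 1 with median, spike-in and lowess scaling and by the median over probe sets. The lower share of all genes was 6.44% and 5.13% with those floors and 7.39% on second probe sets, against 7.22% in the main setting. It was 5.06%, 4.50% and 6.53% with median, spike-in and lowess scaling, and 5.93% by the median over probe sets. Without a floor 3 members were lower, against 14.3% of all genes, and without those suffixes 2, against 7.59%. The median log2 ratio of the members, 0.36, was 0.62 with the floor at the 75th percentile, 0.54 after spike-in and 0.49 after median scaling, and 0.24 without probe sets of the suffixes _x, _s or _a. Cct3 went to -0.28 in that last setting, where a dim probe set was left. Over all genes, 1216 were higher and 931 lower, against 1597 and 653 after median scaling, 1738 and 581 after spike-in scaling, 908 and 591 with the 60th percentile, 657 and 357 with the 75th and 3244 and 2593 without a floor, where higher floors leave fewer genes. The median of all genes was 0.15 after median and 0.19 after spike-in scaling, against 0.02. Other causes were not tested. Dim probe sets limit both lower calls. No paired analysis was possible because each condition has 1 array.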

Other observations

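Some genes with chaperone names lie outside the families described. Hspbp1, an exchange factor of HSP70, had a signal of 292 with P25 and 172 without stimulation. Cct8l1 was above the floor with P25 alone (18.1 against 3.25), and Cct6b was below the floor on both arrays. The probe sets of Hspbap1 gave log2 ratios from -0.10 to 0.46.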
